A study of Mus musculus with 22 samples.

Results

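Small nucleolar RNAs (snoRNAs) are short RNAs of the nucleolus that pair with other RNAs, chiefly ribosomal RNA. In total RNA of mouse fetal liver and in RNA pulled down with the J2 antibody, 87 of the 1484 annotated snoRNA genes had 50 or more counts summed over 8 libraries, and these 87 genes are described here as members. The table they come from lists 52459 genes. The members were chosen by their summed counts, which are therefore a description: just inside the limit lay Gm25016 with 50 counts, Gm24507 with 51 and Snord19 with 52, and just outside it Gm23713 with 49, Gm23136 with 48 and Snord32a with 46.

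The livers were taken from embryos at E14.5. Per the labels, the deficient mice (KO) were Vav-Cre Mettl3fl/fl and the controls (WT) were Mettl3fl/fl without the Cre, so both groups carried the floxed gene. The Vav promoter drives Cre in blood cells, and hepatocytes and other cells of the liver are outside its main range. Mettl3 writes N6-methyladenosine into RNA. From each liver, 1 part gave total RNA (INPUT) and the other part was lysed and incubated with J2, an antibody against double-stranded RNA (J2). There were 2 KO and 2 WT livers. Sorted LSK cells, the fraction without lineage markers that carries Sca-1 and c-Kit, came from KO and WT livers of the same age. They gave 3 KO and 3 WT bulk libraries of polyadenylated RNA, and 2 libraries of each genotype for H3K4me3 CUT&RUN and for single cells. The labels call the libraries biological replicates.

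snoRNAs fall into 2 families. C/D box RNAs, with symbols starting with Snord, bind fibrillarin and direct ribose methylation. H/ACA box RNAs, with symbols starting with Snora, bind dyskerin and direct pseudouridylation. A few members of either family act in cutting the ribosomal RNA precursor instead, and related RNAs of the Cajal body (Scarna) modify spliceosomal RNAs. Most mammalian snoRNAs are cut out of introns of host genes, many of which encode ribosomal proteins or translation factors. Fetal liver is the main site of blood formation at this stage, and its dividing erythroid cells make ribosomes at a high rate. J2 reads long double helices better than short ones, and the helices of a snoRNA are short and interrupted.

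By symbol, 15 members were C/D box RNAs, 12 were H/ACA box RNAs, 1 was a Cajal body RNA (Scarna9) and 59 had symbols that name no family (Gm numbers and AF357399). Many of the latter are predicted genes and can be copies of one another. How reads that match several copies were counted is not given in the sources used here, so values of single copies are uncertain. Of the 87, 82 passed the filter on low counts and were tested. The other 5 were Gm22362, Gm23734, Gm26493, Snora47 and Snord19. Lengths from RefSeq (GRCm38.p6) were found for 83 members and ran from 42 to 246 bases, with a median of 131.

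A host gene on the same strand spanned the start of 74 members. Of these, 65 lay in protein-coding genes and 9 in long noncoding RNA genes, and 13 members had no such host. The 74 members shared 65 hosts, 9 of which held more than 1 member: Snord49a and Snord49b lie in 2410006H16Rik, Gm26448 and Snora62 in Rpsa, and Gm24564 and Gm23600 in Rian. Reads from an unspliced host intron fall on a snoRNA inside it, and these cannot be told apart from reads of the mature snoRNA.

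A sequence was at hand for the first 53 of the 150 bases of Snora57 (chromosome 19, minus strand) in the RefSeq promoter table of GRCm38.p6. It is shown because it holds the kind of short helix that snoRNAs form. The capitals mark 7 bases and their inverted repeat 6 bases further on, which can pair with each other.
Snora57, chr19:8888633-8888685: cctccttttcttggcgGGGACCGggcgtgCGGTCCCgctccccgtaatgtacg

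Hosts of snoRNAs often belong to the class of genes whose transcripts start in a run of pyrimidines, a feature of messenger RNAs of the translation machinery. The starts of 3 hosts are shown, with 15 bases before and 15 from the start on, on the strand of the gene. Capitals mark 6 or more bases in a row that are C or T, counted from a C. That C lies between 5 bases before and 6 bases after the start. C or T bases just before it stay in lower case. The whole run therefore begins earlier in 2410006H16Rik and Ipo7, and in Ipo7 before the searched bases. The 3 hosts hold Snord35a, Snord49a and Snord49b, and Snora23, all lower in J2 than in INPUT of the KO livers (below). They were picked for their runs. Starts read in the same way for Eif4a1, Rps3 and Rpsa held no run of 6 bases. Gm25835, Snord15a and Gm26448 in those genes fell in KO as well, so no link between a start and the J2 ratio is read.
Rpl13a, chr7:45128731-45128760, minus strand: gaaaccctgcgacaagaCCTCCTCCTTTCC
2410006H16Rik, chr11:62602862-62602891, plus strand: tcacgcgccgtCTTTCTCTgcggccatcat
Ipo7, chr7:110018300-110018329, plus strand: ttggcgcttctCTTTCCTTTCgcgccggtt
Of the 65 hosts, 51 had a start sequence in the table, and 10 of them (19.6%) held a run counted in this way. Over all 27025 genes with a sequence the share was 11.9%. Such a match is a description of the letters only.

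INPUT libraries held 3.10 to 4.12 M counts and J2 libraries 3.87 to 5.25 M. Levels below are CPM scaled by TMM, and at these depths a low member rests on few reads. Shares of a library are in unscaled CPM, the same unit over the plain total of gene counts. Mettl3, the targeted gene, was at 6.70 and 26.9 CPM in INPUT of KO livers 1 and 2 and at 29.4 and 24.9 CPM in WT livers 1 and 2. It did not pass the test there (log2 fold change -0.70, SE 0.56, edgeR adjusted p = 0.557), and the liver labelled KO 2 was within the range of the WT livers. The livers are therefore named by their labels throughout. In sorted LSK cells Mettl3 stood at 5.32 ± 1.10 CPM in KO against 39.7 ± 5.67 in WT (SD, n = 3 each; edgeR adjusted p = 1.57e-05). Hepatocyte markers (10 of 10 detected) summed to 21355 and 22632 CPM in INPUT of the KO livers against 10820 and 14477 in WT. Granulocyte markers (5 of 5 detected) summed to 562 and 635 CPM against 174 and 257, and erythroid markers (10 of 10 detected) to 49004 and 41072 against 31013 and 39302. Within the erythroid list the sum and the genes differ: 3 of 10 were called lower in KO, 0 higher, and the median log2 fold change was -0.39. Called higher were 3 of 10 hepatocyte and 1 of 5 granulocyte markers, with 0 called lower. Macrophage markers summed to 334 and 370 CPM in KO against 135 and 142 in WT, and megakaryocyte markers to 368 and 385 against 205 and 213. The sums of endothelial, stromal and LSK markers overlapped between genotypes. In whole tissue, fewer cells of a type and less RNA per cell cannot be told apart.

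One library stood apart. The J2 library of WT liver 2 was the highest of the 4 J2 libraries for 61 of 87 members (70.1%), against 29.8% of all tested genes. Annotated nuclear rRNA took 142 unscaled CPM there, against 69.9 in WT liver 1 and 43.6 and 39.7 in the KO livers. The members' median and the WT calls named below are also given without it.

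Together the 87 members took 1328 and 1277 unscaled CPM in INPUT of WT livers 1 and 2, and 1075 and 1270 in KO livers 1 and 2. In J2 they took 711 and 1377 in WT and 538 and 455 in KO. The INPUT libraries differed little among themselves, 3 of 4 J2 libraries were lower than every INPUT library, and J2 of WT liver 2 was higher than all of them. The mean share in J2 of the KO livers was 496 ± 58.1 unscaled CPM against 1173 ± 138 in their INPUT (SD, n = 2 each).

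**Figure D1:**
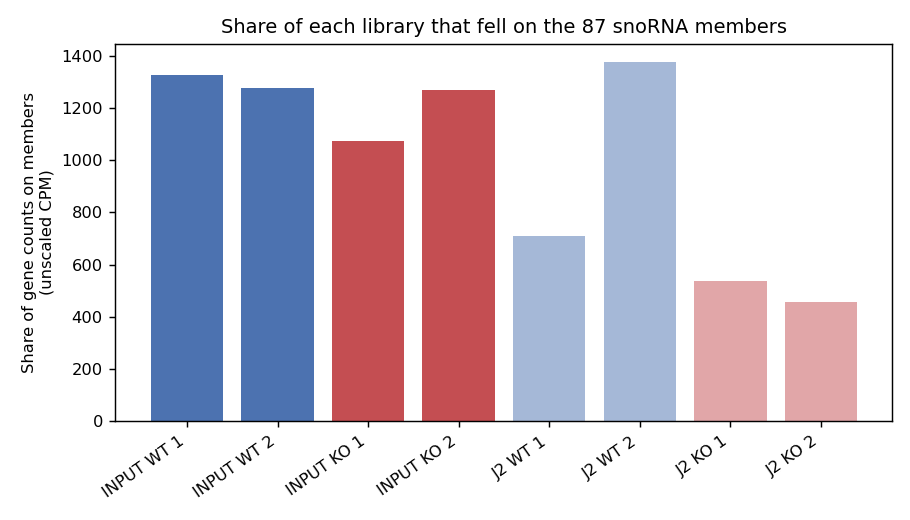
Bars show the share of gene counts on the 87 snoRNA members in unscaled CPM (vertical axis, from 0) in each of the 8 libraries; blue is WT, red is KO, and J2 libraries are paler. J2 of KO livers 1 and 2 reached 538 and 455 unscaled CPM, and J2 of WT liver 2 reached 1377.

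Per length, 3 RNAs stood above the rest in INPUT. Mean INPUT levels were 132 CPM per 100 bases for Gm25835, 112 for Snord15a and 91.6 for Gm24494. Snora21 followed with 61.1, then Snord87 with 37.8, Snord118 with 37.3, Snord17 with 32.7, Gm24339 with 32.2, Gm22422 with 30.9 and Snora23 with 27.0 CPM per 100 bases. Gm25835 and Snord15a exceeded 100 on this scale in the mean over both genotypes, and the neighbours from Snord87 to Gm22422 were close to one another.

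The first comparison asked whether snoRNA levels in total liver RNA differed between genotypes. No member passed the test in INPUT of KO over WT livers (0 of 82), where 1.18% of all 14657 tested genes were called, 0.614% higher and 0.566% lower. At an unadjusted p under 0.05, 1 member was lower and 0 were higher with edgeR, and DESeq2 called 0. The median log2 fold change of the members was -0.32 against 0.02 over all tested genes. The CPM of the KO livers lay below those of both WT livers for 26 members (31.7%) and above them for 3, against 18.2% and 22.1% of all tested genes.

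Snord15a, a guide for large-subunit rRNA, was at 125 and 119 CPM in KO and 220 and 202 CPM in WT livers. All 4 values are separated by genotype, but the log2 fold change of -0.79 (SE 0.54) did not pass the test (edgeR adjusted p = 0.479). Snora23, in the nuclear import receptor gene Ipo7, was at 36.0 and 39.1 CPM in KO and 65.7 and 58.0 CPM in WT (log2 fold change -0.72, SE 0.36, edgeR adjusted p = 0.335). Gm25788, in the poly(A)-binding protein gene Pabpc4, was at 18.4 and 26.9 CPM in KO and 45.6 and 45.0 CPM in WT. Pabpc4 itself was called lower in INPUT, with means of 303 CPM in KO and 905 CPM in WT (log2 fold change -1.58, edgeR adjusted p = 0.00118). Whether Gm25788 differed apart from its host was not tested. Rps3 and Ipo7, the hosts of Snord15a and Snora23, had 0.43 and 0.26 and were not called. Of 64 tested hosts 3 were called lower in INPUT and 0 higher. Snord15a, Snora23 and Gm25788 kept apart by genotype in INPUT. Snord118, the U8 RNA needed to process the large-subunit rRNA precursor, did not: it was at 50.4 and 56.0 CPM in KO and 46.0 and 52.3 CPM in WT. The cell type markers above differed between the same libraries, and their part in these values was not tested.

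The second comparison asked how snoRNAs in the J2 pull-down compare with INPUT of the same genotype. In the KO livers 22 members fell and 1 rose among 82 tested. Without J2 of KO liver 1 the members' median log2 fold change was -1.24, against 0.01 over all tested genes. Without J2 of KO liver 2 it was -1.43, against 0.03. Without INPUT of KO liver 1 it was -1.32, against 0.26, and without INPUT of KO liver 2 -1.0001, against 0.22. Each of these fits leaves 1 library in a group, so their calls are not set beside those of the full fit. In the full fit 30.4% of all 14657 tested genes were called, 15.1% lower and 15.3% higher. The members' share called in either direction (28%) was thus near the background, while the share called lower was 26.8%. In the WT livers 4 members fell and 1 rose, where 23.9% of all tested genes were called, 10.7% lower and 13.2% higher. With the liver as a block, 8 members fell and 1 rose in WT. The median log2 fold change of the tested members was -1.47 in KO and -0.49 in WT, against 0.04 and 0.10 over all tested genes.

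The WT result depends on which J2 library enters. Each of the 5 WT calls was lost with only the 4 WT libraries fitted or without 1 WT library. Without J2 of WT liver 2 the members' median log2 fold change was -1.16, against 0.07 over all tested genes. Without J2 of WT liver 1 it was -0.11, against 0. Within each liver, the median log2 ratio of J2 over INPUT across the 87 members (1 CPM added to each) was -0.93 in WT liver 1, -0.17 in WT liver 2, -0.83 in KO liver 1 and -1.17 in KO liver 2. WT liver 1 therefore lay between the KO livers. Over all tested genes the same medians ran from 0.08 to 0.16.

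**Figure D2:**
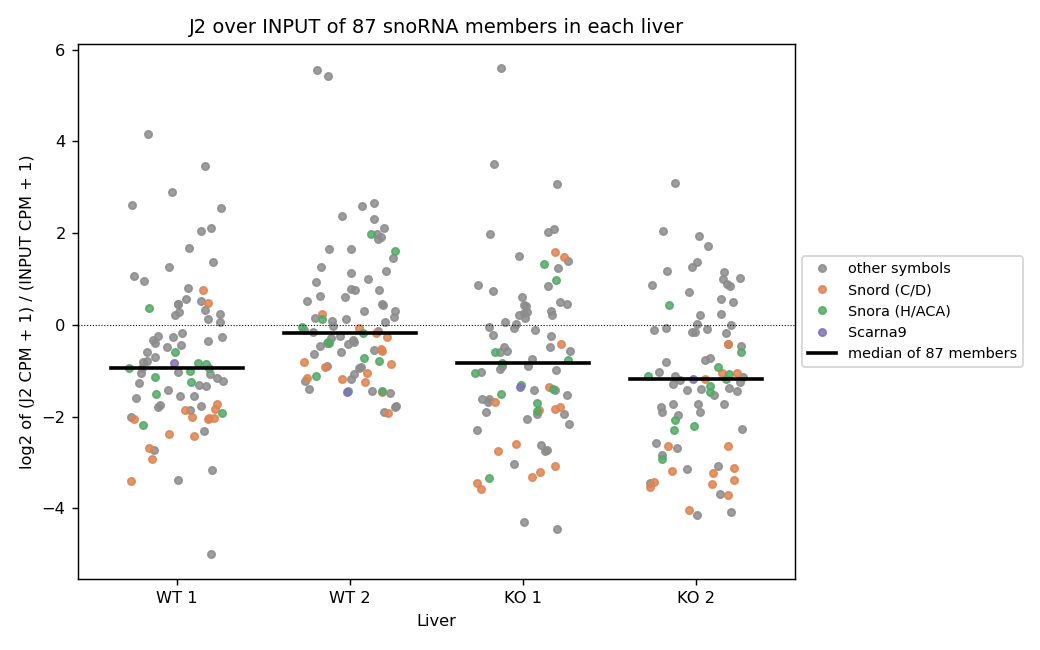
Each point is 1 of the 87 members in 1 liver (horizontal axis, with sideways scatter for legibility), the vertical axis is log2 of (J2 CPM + 1) over (INPUT CPM + 1), colours mark the family by symbol, and black lines are medians. The medians were -0.93 and -0.17 in WT livers 1 and 2 and -0.83 and -1.17 in KO livers 1 and 2, and C/D box members sit towards the bottom of each column.

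Among C/D box members, 9 of 14 tested fell in KO and 1 of 14 in WT, and their median log2 fold changes were -3.73 and -1.57. Over all tested genes 15.1% were called lower in KO and 10.7% in WT, so the 1 WT call is no excess. Within livers the C/D medians of the J2 over INPUT ratio were -2.03 and -0.86 in WT livers 1 and 2, and -1.86 and -3.19 in KO livers 1 and 2. Snord15a, whose host is the ribosomal protein gene Rps3 (chromosome 7, minus strand, start 99482932), was at 10.5 and 9.36 CPM in J2 of KO livers 1 and 2, against 125 and 119 CPM in their INPUT. In WT livers 1 and 2 its J2 levels were 19.8 and 114 CPM against 220 and 202 CPM in INPUT. J2 was below INPUT in both genotypes without overlap, and J2 of WT liver 2 was well above the other 3. The log2 fold change was -3.61 (SE 0.61, edgeR adjusted p = 0.000934) in KO and -1.66 (SE 0.55, edgeR adjusted p = 0.0480) in WT. The WT value was -3.40 without J2 of WT liver 2 and -0.86 without J2 of WT liver 1.

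Snord17, in the sorting nexin gene Snx5 (chromosome 2, minus strand, start 144266216), was at 4.74 and 5.12 CPM in J2 of KO against 51.6 and 56.3 CPM in INPUT. In WT it was at 12.9 and 51.6 CPM in J2 against 73.0 and 108 CPM in INPUT. Its fall passed the test in KO (log2 fold change -3.44, SE 0.58, edgeR adjusted p = 0.000889). In WT the log2 fold change was -1.49 (edgeR adjusted p = 0.0578).

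Snord118 has a promoter of its own in vertebrates, and RefSeq gave no host for it (chromosome 11, plus strand, start 69073427). Its level was 7.52 and 2.47 CPM in J2 of KO against 50.4 and 56.0 CPM in INPUT, and 7.99 and 22.7 CPM in J2 of WT against 46.0 and 52.3 CPM in INPUT. It fell in KO by 3.40 on the log2 scale (SE 0.61, edgeR adjusted p = 0.00140). J2 of WT liver 1 was close to J2 of KO liver 1 for this RNA.

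Snord35a is one of several snoRNAs in the introns of Rpl13a (chromosome 7, minus strand, start 45126435), whose start is printed above. It was at 0.327 and 0.177 CPM in J2 of KO against 10.2 and 14.4 CPM in INPUT, and at 1.78 and 5.29 CPM in J2 of WT against 10.4 and 16.3 CPM in INPUT. Among the called members it had the most negative log2 fold change in KO, -5.44 (SE 1.08, edgeR adjusted p = 0.00263). These J2 levels are very few reads per library.

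Snord87, in the noncoding gene Snhg6 (chromosome 1, minus strand, start 9942549), was at 0.817 and 2.47 CPM in J2 of KO against 20.8 and 36.1 CPM in INPUT (log2 fold change -4.10, SE 0.77, edgeR adjusted p = 0.00185). In WT its J2 levels were 4.88 and 13.6 CPM against 23.6 and 31.5 CPM in INPUT. The neighbours Snord49a and Snord49b had log2 fold changes of -3.85 and -4.91, and Snord83b in Rpl3 had -3.20. Snord49a and Snord49b lost their calls when INPUT of KO liver 2, J2 of KO liver 1 or J2 of KO liver 2 was left out (edgeR adjusted p from 0.0911 to 0.207), and Snord49a with the liver as a block (0.0640).

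Among H/ACA box members, 4 of 11 tested fell in KO and 0 of 11 in WT, with medians of -1.57 and -0.89. Of all tested genes, 15.1% were called lower in KO and 10.7% in WT. Within livers the H/ACA medians were -0.98 and -0.38 in WT livers 1 and 2, and -1.18 and -1.25 in KO livers 1 and 2. Snora73b, of the U17 group that acts in cutting the rRNA precursor, lies in Snhg3 (chromosome 4, minus strand, start 132352526). It was at 1.80 and 2.83 CPM in J2 of KO against 27.3 and 27.8 CPM in INPUT, and at 6.22 and 18.4 CPM in J2 of WT against 31.7 and 40.9 CPM in INPUT. It fell in KO by 3.56 on the log2 scale (SE 0.64, edgeR adjusted p = 0.00143). In WT its J2 levels were lower than INPUT without overlap, and the log2 fold change of -1.56 missed the threshold (edgeR adjusted p = 0.0736).

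Snora21, in the ribosomal protein gene Rpl23, guides pseudouridylation of large-subunit rRNA. It was at 33.2 and 31.8 CPM in J2 of KO against 69.2 and 70.0 CPM in INPUT, and at 42.8 and 88.9 CPM in J2 of WT against 82.7 and 91.1 CPM in INPUT. The fall in KO was 1.10 on the log2 scale (SE 0.34, edgeR adjusted p = 0.0305). The WT groups overlapped. Snora23 fell in KO by 1.57 (SE 0.37, edgeR adjusted p = 0.00740) and Snora17 in Snhg7 by 2.23 (SE 0.66, edgeR adjusted p = 0.0231). Snora57, whose first bases are printed above, was at 0.817 and 1.24 CPM in J2 of KO against 5.71 and 5.20 CPM in INPUT (log2 fold change -2.38, edgeR adjusted p = 0.0716).

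Of 56 tested members whose symbols name no family, 9 fell and 1 rose in KO, and 3 fell and 1 rose in WT. These shares called lower were near the 15.1% of all tested genes in KO and under the 10.7% in WT, so falls alone set this group apart in neither genotype. Beside the 1 member called higher in each genotype stand 15.3% of all tested genes in KO and 13.2% in WT. The group's median log2 fold change was -0.89 in KO and -0.12 in WT, against 0.04 and 0.10 over all tested genes. The one with most counts was Gm25835, in Eif4a1, the gene of a helicase of translation initiation (chromosome 11, minus strand, start 69668995). It was at 7.52 and 9.36 CPM in J2 of KO against 167 and 182 CPM in INPUT, and at 17.3 and 97.7 CPM in J2 of WT against 190 and 223 CPM in INPUT. It fell in both genotypes, by 4.37 (SE 0.62, edgeR adjusted p = 0.000310) in KO and by 1.85 (SE 0.55, edgeR adjusted p = 0.0301) in WT. The WT value was -3.56 without J2 of WT liver 2, near that of KO, and -1.05 without J2 of WT liver 1.

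Gm26448, in the laminin receptor and ribosomal protein gene Rpsa (chromosome 9, plus strand, start 120129351), was at 1.31 and 1.06 CPM in J2 of KO against 49.1 and 33.9 CPM in INPUT. In WT it was at 0.666 and 14.6 CPM in J2 against 52.5 and 57.2 CPM in INPUT. Here J2 of WT liver 1 was below both KO livers. The log2 fold change was -5.10 (SE 0.99, edgeR adjusted p = 0.00231) in KO and -2.86 (SE 0.86, edgeR adjusted p = 0.0315) in WT. The WT value was -6.29 without J2 of WT liver 2 and -1.88 without J2 of WT liver 1. Snora62, the other member inside Rpsa, was at 3.27 and 5.12 CPM in J2 of KO against 10.2 and 12.8 CPM in INPUT, and its log2 fold change of -1.45 did not pass the test (edgeR adjusted p = 0.150).

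Gm24494, in Rabggtb, a subunit gene of the enzyme that attaches geranylgeranyl groups to Rab proteins (chromosome 3, minus strand, start 153911690), was at 7.35 and 9.36 CPM in J2 of KO against 55.6 and 86.9 CPM in INPUT. In WT it was at 24.2 and 33.5 CPM in J2 against 61.0 and 93.2 CPM in INPUT. J2 lay below INPUT without overlap in both genotypes, and Gm24494 fell by 3.09 (SE 0.40, edgeR adjusted p = 0.000165) in KO and by 1.42 (SE 0.37, edgeR adjusted p = 0.0172) in WT. The WT value was -1.66 without J2 of WT liver 2 (edgeR adjusted p = 0.0581). Further falls in KO were those of Gm22786 (-5.01), Gm24208 (-4.42), Gm22422 (-3.41), Gm26440 (-2.42), Gm23245 (-2.14) and Gm22154 (-1.99). Gm22786 lost its call without INPUT of KO liver 2 or either J2 library of KO, and Gm24208 without J2 of KO liver 2 (edgeR adjusted p = 0.116).

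**Figure D3:**
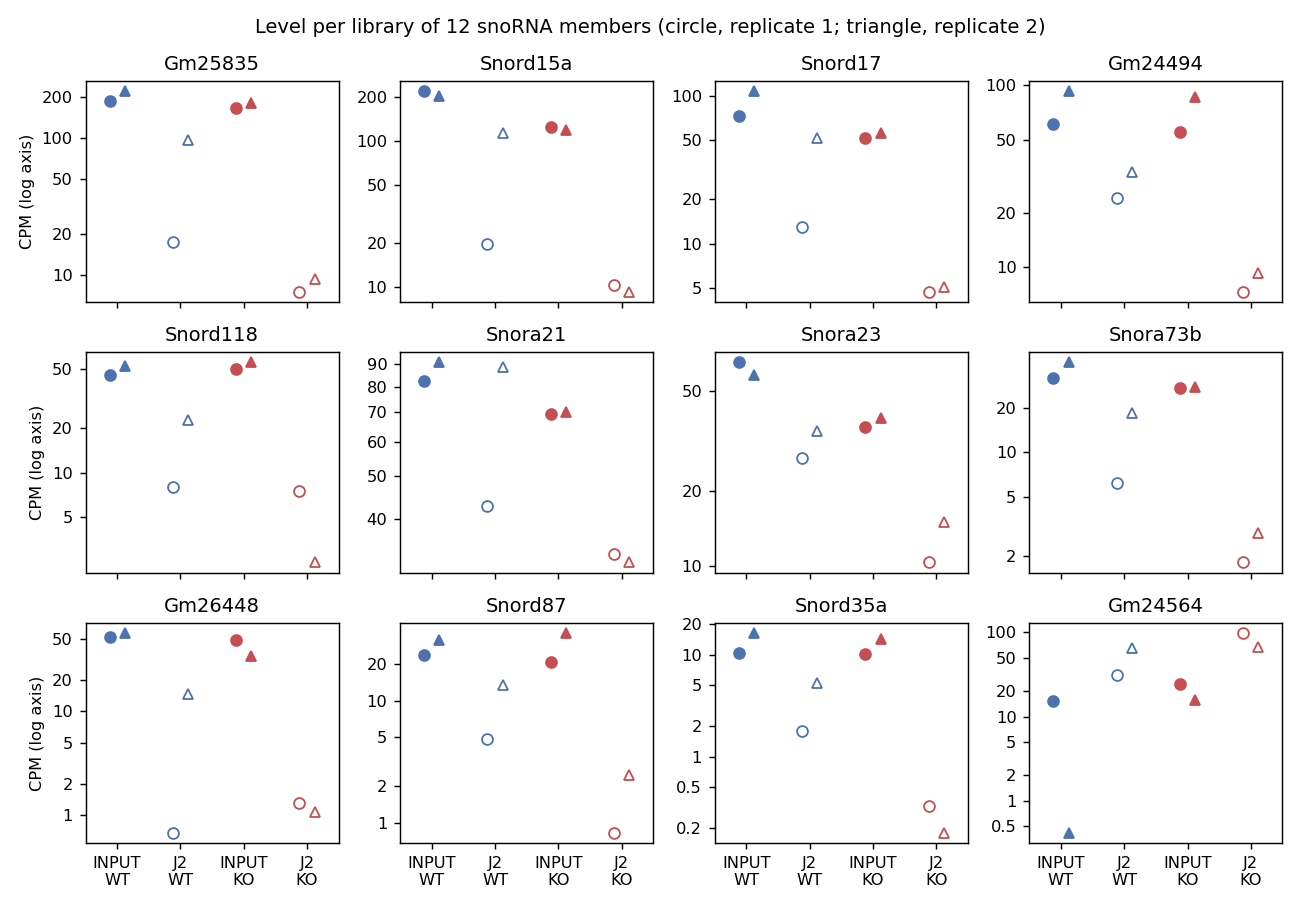
CPM on a log axis (vertical) of 12 members in INPUT (filled) and J2 (open) of WT (blue) and KO (red) livers, with a circle for liver 1 and a triangle for liver 2. In 11 panels J2 of the KO livers lies below INPUT, J2 of WT liver 2 lies above J2 of WT liver 1, and Gm24564 is higher in J2 than in INPUT.

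The member called higher in WT was Gm24564. It lies in Rian, a noncoding RNA of the imprinted Dlk1-Meg3 region that carries many C/D box genes (chromosome 12, plus strand, start 109631074). It was at 31.1 and 65.7 CPM in J2 of WT livers 1 and 2 against 15.4 and 0.409 CPM in INPUT, and at 99.0 and 67.3 CPM in J2 of KO against 24.3 and 15.6 CPM in INPUT. J2 exceeded INPUT in each of the 4 livers. The log2 fold change was 2.59 (SE 0.83, edgeR adjusted p = 0.0411) in WT and 2.05 (SE 0.76, edgeR adjusted p = 0.0616) in KO. The WT call was lost without J2 of WT liver 2 (edgeR adjusted p = 0.232).

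Gm23600, the other member in Rian, was at 6.44 and 4.28 CPM in J2 of WT against 0 and 2.45 CPM in INPUT, and at 5.39 and 5.83 CPM in J2 of KO against 1.24 and 1.83 CPM in INPUT. It passed the test in neither genotype (edgeR adjusted p = 0.304 in WT and 0.322 in KO). Rian itself rose in KO by a log2 fold change of 0.96 (edgeR adjusted p = 0.00279) and had 0.18 in WT (edgeR adjusted p = 0.538).

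Gm24539, in the zinc finger gene Zfp808 (chromosome 13, plus strand, start 62136930), was the only member called higher in J2 of KO. It was at 47.4 and 25.8 CPM in J2 of KO against 0 and 2.14 CPM in INPUT (log2 fold change 5.17, SE 1.38, edgeR adjusted p = 0.0143). In WT it was at 55.1 and 148 CPM in J2 against 72.2 and 2.45 CPM in INPUT, so INPUT of WT liver 1 stood far above the other 3 INPUT libraries. The KO call was lost without INPUT of KO liver 1 (edgeR adjusted p = 0.0916).

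The rule summed INPUT and J2 counts, so a member with few INPUT counts entered mainly where its J2 counts were high, and its ratio was set in part by the choice. Likewise a member with few J2 counts entered mainly through its INPUT counts, and its fall was set in part by the choice. Gm22786, with 1 and 2 counts in J2 of KO livers 1 and 2, is such a member. No pattern across INPUT levels is therefore read. The 18 tested members under 100 bases had a median of -2.84 in KO and the 60 of 100 bases or more had -1.39. Below 0 were 13 of the 18 and 43 of the 60, and no pattern by length is read either.

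Whether the J2 over INPUT ratio differed between genotypes was tested by the interaction. No member passed (0 of 82), nor did any of the 14657 tested genes (0%) with edgeR, while DESeq2 called 68 genes. At an unadjusted p under 0.05, 10 members were lower and 0 higher in KO than in WT with edgeR, and none of DESeq2's 68 calls was a member. The median of the difference was -1.19 over the tested members against -0.10 over all tested genes. It was -0.56 without J2 of WT liver 2. Without J2 of WT liver 1 it was -1.43 and 2 members were called lower. For Gm25835 the difference was -2.52 (SE 0.79, edgeR adjusted p = 0.459), and for Snord15a it was -1.96 (SE 0.79, edgeR adjusted p = 0.512).

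**Figure D4:**
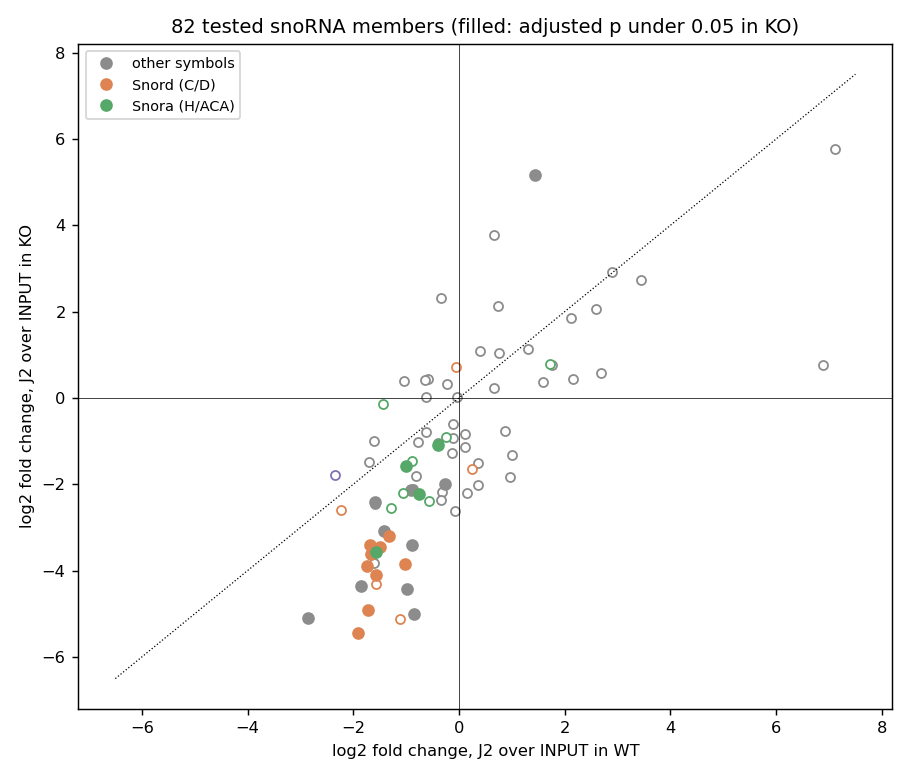
Each point is 1 of the 82 tested members, with the log2 fold change of J2 over INPUT in WT on the horizontal and in KO on the vertical axis; the dotted line marks equal values, colours mark the family (Scarna9 is the purple open point) and filled points had an adjusted p under 0.05 in KO. Filled points other than Gm24539 lie below 0 and below the dotted line.

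The levels in J2 alone showed the same spread. The CPM of both KO livers were below those of both WT livers for 52 of 82 members (63.4%) and above them for 2, against 27.9% and 26.6% of all tested genes. In KO, J2 lay below INPUT without overlap for 52 members (63.4%, against 33.8% of all tested genes) and above it for 12 (14.6%, against 37.9%). In WT, J2 lay below INPUT for 35 (42.7%, against 27%) and above it for 15 (18.3%, against 34.4%).

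Host genes gave a further reference for the members inside them. Of 64 tested hosts, 19 fell and 18 rose in J2 over INPUT of KO, and 17 fell and 9 rose in WT. Over all tested genes 15.1% fell and 15.3% rose in KO, and 10.7% fell and 13.2% rose in WT. The member was below its own host in 46 of 68 pairs in KO and in 38 of 68 in WT. Across these pairs the Pearson correlation of the log2 fold changes in KO was 0.42, in WT 0.22, and for INPUT of KO over WT 0.07. These are descriptions, since the points share libraries and some share a host. Eif4a1 fell in KO by 2.04 (edgeR adjusted p = 8.18e-05), beside -4.37 for Gm25835, and Rpl13a fell by 2.10 (edgeR adjusted p = 0.00264), beside -5.44 for Snord35a. Snx5 rose by 1.75 (edgeR adjusted p = 0.000174), opposite to Snord17. Rpsa stood at 0.12 (edgeR adjusted p = 0.570), beside -5.10 for Gm26448. The differences between a member and its host were not tested.

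**Figure D5:**
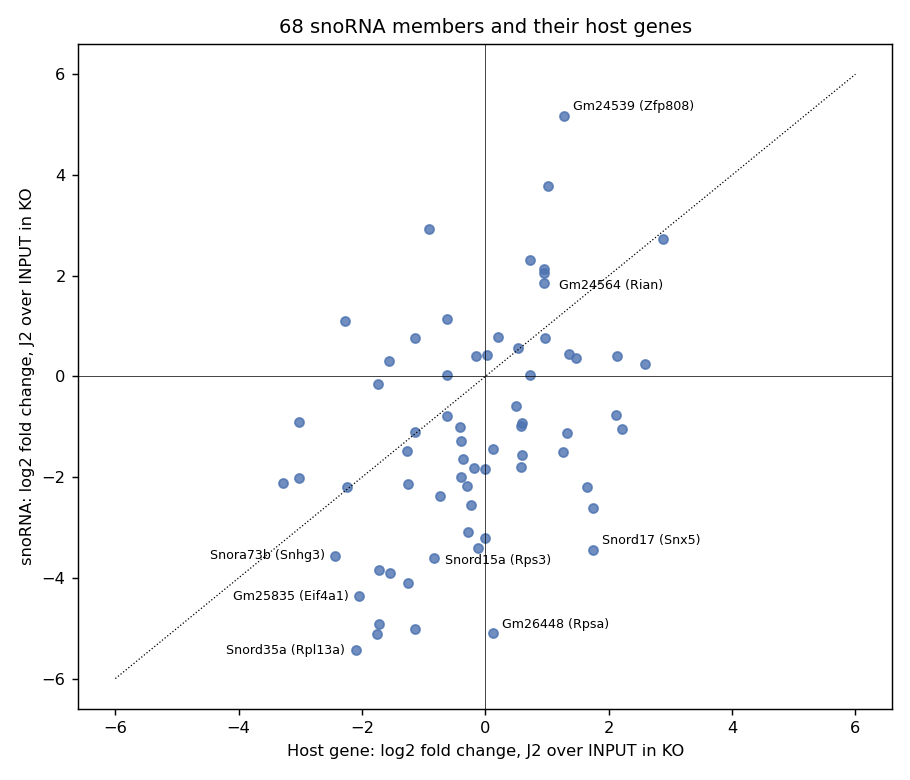
Each point is 1 of 68 member and host pairs, with the log2 fold change of J2 over INPUT in KO of the host gene on the horizontal and of the snoRNA on the vertical axis; the dotted line marks equal values. Points below the line, 46 of 68, are members lower than their host, among them Snord17 in Snx5 and Gm26448 in Rpsa.

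Messenger RNAs of the proteins that bind snoRNAs were also lower in J2. Of the 4 C/D core genes, 3 fell in KO and 2 in WT: Nop56 by 2.70 and 1.85, Fbl (fibrillarin, the methyltransferase) by 2.97 and 1.63, and Snu13 by 1.35 in KO. Nop58 stood at -0.29 in KO (edgeR adjusted p = 0.393). All 4 H/ACA core genes fell in KO, namely Dkc1 (dyskerin, the pseudouridine synthase) by 1.12, Nop10 by 2.43, Nhp2 by 2.60 and Gar1 by 2.89, and 2 of the 4 in WT. In INPUT of KO over WT 0 of these 8 genes was called.

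Of the genes that assemble snoRNA particles 5 of 16 fell in KO, and of the genes of the complex that processes the small-subunit precursor 9 of 21, with 1 rising in each list. Of 20 tested noncoding hosts 7 fell and 2 rose in KO, among the falls Gas5 (-1.72) and Snhg1 (-3.23). Of 56 coding hosts, a list made up of ribosomal protein and translation factor genes for the most part, 36 fell and 2 rose. Other structured RNAs (10 of 18 lower) and the small nuclear RNAs (8 lower and 2 higher of 45) were read in the same libraries. Of the hepatocyte markers 9 of 10 fell in J2 of KO, and of the erythroid markers 7 of 10 fell and 2 rose. Beside these counts stand 15.1% of all tested genes lower and 15.3% higher. The small nuclear RNAs were close to the share called lower and under the share called higher.

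In LSK cells the bulk libraries hold polyadenylated RNA, which few mature snoRNAs carry. Members took 27.2, 26.1 and 25.6 unscaled CPM in KO libraries 1 to 3 and 35.5, 19.4 and 15.1 in WT libraries 1 to 3, from 20.1 to 40.6 M counts per library. Of 24 tested members 1 rose, where 44.2% of all 14405 tested genes were called, 21.6% higher and 22.6% lower. It was Snora73b, at 5.12, 6.98 and 6.71 CPM in KO and 3.96, 2.94 and 1.53 CPM in WT. The groups did not overlap, and the log2 fold change was 1.12 (SE 0.28, edgeR adjusted p = 0.0111). Its host Snhg3 rose by 0.97 (edgeR adjusted p = 0.000293).

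The protein partners rose in the same LSK libraries: 4 of 4 H/ACA core genes, by 0.27 (Dkc1) to 0.76 (Nhp2) on the log2 scale, 2 of 4 C/D core genes (Nop56 by 0.32 and Snu13 by 0.31) and 18 of 21 genes of the small-subunit processing complex. Of the 64 tested hosts 23 rose and 3 fell, the falls including Rian (-1.70, edgeR adjusted p = 0.000465). Beside these counts stand 21.6% of all tested genes called higher and 22.6% lower. Granulocyte markers moved with the protein partners: all 5 were detected and 4 rose. They summed to 3757 to 3834 CPM in KO against 1546 to 1678 CPM in WT. Other lists had more falls than rises: 4 of 10 erythroid (0 rose), 3 of 5 LSK (1 rose) and 2 of 5 megakaryocyte markers (1 rose) fell. So did 2 of 4 endothelial and 2 of 2 tested stromal markers, with 0 rising. The part of the marker genes in these values was not tested.

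H3K4me3, a histone mark of active gene starts, was counted in windows of 3 kb. The strongest window of 43 of the 87 members was marked (mean log2 CPM of at least 4), against 30.3% of all genes. Of the 87, 8 fell and 0 rose in KO LSK cells, where 7.88% of all 51038 tested genes were called, 3.23% higher and 4.66% lower. They were Gm22154, Gm22205, Gm24539, Gm24771, Gm24920, Gm25117, Gm25776 and Gm25788. None of the 8 lay in a marked window (mean log2 CPM 0.51 to 3.00). With only marked windows fitted, 2 other members were called lower. With the replicate number as a block the call turned to 28 members higher and 16 lower. Of all tested genes 40.8% were then called, 12424 higher and 8416 lower, so no direction is read. Windows of a snoRNA inside a short host overlap the start of the host, so that the mark of either cannot be told apart.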

How the data were processed

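The authors deposited unnormalized read counts, per gene for bulk, INPUT and J2, per window of 3 kb at transcript starts for H3K4me3, and per gene and cell for single cells, per the labels. The submitters' processing notes name the aligners Bowtie2 2.2.9 and STAR 2.5.3a, edgeR and the build GRCm38.p5, among other tools. The counting tool, its strand setting and its handling of reads that match several places are not given in the sources used here. Without strand, a snoRNA and an overlapping gene on either strand cannot be told apart.

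Samples were grouped by their labels. Members are genes of biotype snoRNA with 50 or more counts over the 8 INPUT and J2 libraries. The members and all gene lists were chosen with earlier results of these data known. Counts were tested with edgeR 4.0.16 (R 4.3.3): filterByExpr, TMM, quasi-likelihood F test, and Benjamini-Hochberg adjustment over all tested genes, with calls at an adjusted p under 0.05. The 8 libraries were fitted together with 4 group means. CPM are TMM-scaled, and SE is that of the log2 fold change. Scripts were tested on simulated counts. The labels' protocol pairs INPUT with J2 of the same liver, and their deviations from the group means correlated by 0.01 (KO) and 0.13 (WT), so the liver entered as a block in an alternative. For H3K4me3 the strongest window of each gene was tested.

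Genes named are, per comparison, up to 10 called members with the largest changes and groups that do not overlap, the 10 members with the highest INPUT level, known snoRNAs as examples of each family, and genes of the lists and hosts. Starts of members are those in the deposited H3K4me3 table (GRCm38.p5). Hosts, lengths and sequences come from RefSeq (GRCm38.p6) by position. The starts of 61 of 83 matched members were identical in both. Alternatives were another scaling, no filter, DESeq2 1.42.0, other minimum counts, only the libraries compared, the replicate block and leaving out each library. The single-cell sums were described and not tested. Sequences of snoRNAs other than Snora57 were not used here. One result is not reported here.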

Additional observations from a re-analysis of the deposited data

How the results depend on the processing

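With 2 libraries a group and few reads per member, counts of calls moved with single settings; the cause was not tested. In INPUT of KO over WT, 1 member was called with no filter on low counts, and leaving out one library gave 0 to 1. For J2 over INPUT in WT (5 called), library size alone gave 1, fitting only the 4 libraries compared 1, no filter 9, DESeq2 9 and the replicate block by liver 9, and leaving out one library gave 2 to 7. In KO (23 called), the other settings gave 18 to 30 and leaving out one library 13 to 21. For the difference between genotypes, no filter gave 3 called members and leaving out one library 0 to 2. In bulk LSK cells leaving out one library gave 1 to 3. For H3K4me3 (8 called), library size alone gave 13, DESeq2 1, marked windows only 2 (chosen after seeing the data), and leaving out one library 1 to 6. With a minimum of 200 counts the shares were 974 unscaled CPM in INPUT of KO, 1110 in INPUT of WT and 381 in J2 of KO. Scaling by library size shifted the median over all tested genes to 0.29 in INPUT, 0.52 for J2 in WT and 0.33 for J2 in KO; the members' medians were then -0.05, -0.09 and -1.18. Of 176 settings of named members 144 kept their call, 32 lost it and 0 reversed.

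In H3K4me3 and INPUT the genotypes share only replicate numbers. With these as a replicate block, 44 members were called for H3K4me3 (28 higher, 16 lower, among 20840 genes, 40.8% of all tested). In INPUT 0 members were called, where 0.166% of all tested genes were. The deviations of same-numbered samples correlated by 0.30 in H3K4me3 and -0.01 in INPUT. In bulk cells the block left 1 member called, and same-numbered samples correlated by 0.23, 0.10 and 0.04, with number 2 closer to another number. The block by liver changed no other count of member calls by over 1.5 times.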

Other observations

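The single-cell table of LSK cells lists 26 of the 87 members among 14780 genes. Within a library, a gene with counts had them in at least 10 cells, so a gene listed at 0 may have had a few. Snora73b had the most counts summed over the 4 libraries, 906 and 329 in the KO libraries and 382 and 171 in the WT libraries, or 94.3 and 28.2 against 52.6 and 20.5 unscaled CPM. The genotypes overlapped. Snord104 had 336 and 460 counts in KO and 211 and 225 in WT, more than Snora73b in the replicate 2 library of each genotype. Snora57 was at 21.1 and 10.8 unscaled CPM in KO and 25.4 and 10.3 in WT. These sums were not tested.

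A few members were near or at 0 in INPUT and had counts in J2. Gm25945 had 0 counts in all 4 INPUT libraries and 14, 21, 19 and 1 counts in J2 of WT livers 1 and 2 and KO livers 1 and 2. Gm24771 had 0 counts in INPUT of both WT livers and was at 2.22 and 5.04 CPM in their J2. Both are members through their J2 counts, so that an excess in J2 was fixed by the choice and is no result. Neither passed the test (edgeR adjusted p = 0.0939 and 0.0936).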
